A study of Mus musculus with 6 samples.

Results

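The nuclear genes for the mitochondrial respiratory chain were followed in whole aorta of mice treated with erythropoietin. The set is every protein-coding mouse gene whose symbol starts with Nduf, Uqcr or Atp5, or with Cox and a digit from 4 to 8, together with Sdha, Sdhb, Sdhc, Sdhd and Cyc1. These names took in 94 of the 47643 genes of the count table: 36 subunits of complex I, 8 assembly factors of complex I, 4 subunits of complex II, 9 of complex III, 20 genes of complex IV and 17 of complex V. Ndufa4 and Ndufa4l2 carry complex I names but were placed with complex IV, where NDUFA4 is now known to sit. For its relative Ndufa4l2 the placement is a choice. Membership rested on names alone and used no measured value, though the rule was set with earlier results of these data known. Of the 94 genes, 92 had enough counts to be tested, while Cox7b2 and Cox8c had 0 counts in every library. A count of 0 still allows up to 3 counts from counting error alone. That is between 0.0779 and 0.129 CPM (counts scaled to a common library size of 1e6), depending on the library. These limits use total counts, without the further scaling behind the other CPM values.

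All mice were Apoe-/-, lacking apolipoprotein E, so the deletion is shared by both groups and there is no wild-type group among the samples used here. The EPO group was injected intraperitoneally with recombinant human erythropoietin at 5000 IU/kg per day over 4 weeks, and the Vehicle group with saline over the same 4 weeks. Erythropoietin is the hormone that drives red cell formation, and the title of the series ties it to abdominal aortic aneurysm. RNA came from the entire aorta, so each library mixes all cell types of the vessel and whatever adhered to it. Each group had 3 libraries, and the labels used here give neither age nor sex. They also do not state that each library came from its own animal, so p-values measure the spread between libraries. Total counts ran from 23278649 to 27904322 in Vehicle and from 28798632 to 38502430 in EPO, and Apoe itself kept 176 to 516 counts in Vehicle and 335 to 1385 in EPO, which does not check the deletion without a wild type.

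The respiratory chain sits in the inner mitochondrial membrane. Complex I takes electrons from NADH and complex II takes them from succinate; both hand them through ubiquinone to complex III, cytochrome c and complex IV, where oxygen is reduced to water. Complexes I, III and IV pump protons, and complex V, the ATP synthase, lets them flow back to make ATP. A few subunits are encoded in mitochondrial DNA and the rest in the nucleus. The aortic wall consists largely of smooth muscle, which contains these complexes too, while heart, skeletal muscle and brown fat are especially rich in mitochondria and carry their own isoforms of several complex IV subunits.

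NRF1 and GABPA are the transcription factors best known for binding promoters of this gene set. The 250 bases before the gene start (RefSeq, mouse GRCm38.p6) were available for 73 of the tested members, and their letters were searched on both strands. The NRF1 word GCATGCGC was present in 9 of the 73 promoters (12.3%) against 536 of 11878 promoters of all tested genes (4.51%). The ETS core CCGGAAG, which GABPA binds, was present in 14 members (19.2%) against 14.0% of all tested genes. The YY1 word AAGATGGCG was found in 1 member (1.37%, against 1.25%) and the ESRRA word TCAAGGTCA in 1 member (1.37%, against 0.312%). Members with the NRF1 letters were Ndufa6, Ndufa8, Ndufa11, Ndufaf4, Sdhb, Cox6a1, Atp5g2, Atp5k and Atp5l. Below, 4 promoters are shown 5′ to 3′ and end at the base before the RefSeq gene start. Ndufaf4, an assembly factor that was lower with EPO, and Cox6a1, the ubiquitous form of a complex IV subunit, hold the NRF1 letters; Ndufb3, the lower member of smallest p, and Cox8b, a tissue-restricted complex IV form, hold none of the words. Capitals mark the words found.

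Ndufaf4 (chr4:24897833-24898082, plus strand): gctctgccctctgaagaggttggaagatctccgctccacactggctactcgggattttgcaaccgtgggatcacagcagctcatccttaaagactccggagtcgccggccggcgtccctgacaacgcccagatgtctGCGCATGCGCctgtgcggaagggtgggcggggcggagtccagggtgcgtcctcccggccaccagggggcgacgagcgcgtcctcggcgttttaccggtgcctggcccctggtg

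Cox6a1 (chr5:115348959-115349208, minus strand): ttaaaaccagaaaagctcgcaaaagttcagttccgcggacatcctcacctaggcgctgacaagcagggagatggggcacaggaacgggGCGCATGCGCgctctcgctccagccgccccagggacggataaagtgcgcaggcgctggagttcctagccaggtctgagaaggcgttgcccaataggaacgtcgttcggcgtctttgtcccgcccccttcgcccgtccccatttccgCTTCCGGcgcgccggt

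Ndufb3 (chr1:58586147-58586396, plus strand): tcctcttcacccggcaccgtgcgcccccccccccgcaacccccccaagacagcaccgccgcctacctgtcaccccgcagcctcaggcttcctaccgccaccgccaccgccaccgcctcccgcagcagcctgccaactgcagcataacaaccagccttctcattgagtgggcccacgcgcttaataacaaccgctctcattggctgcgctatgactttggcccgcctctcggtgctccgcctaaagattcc

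Cox8b (chr7:140900447-140900696, minus strand): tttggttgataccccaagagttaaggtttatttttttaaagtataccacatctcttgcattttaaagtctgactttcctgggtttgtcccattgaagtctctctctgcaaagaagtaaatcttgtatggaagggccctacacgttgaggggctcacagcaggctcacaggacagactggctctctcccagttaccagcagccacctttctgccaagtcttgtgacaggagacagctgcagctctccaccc

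In Ndufaf4 the NRF1 letters lie on both strands and overlap in one run, starting 113 and 111 bases before the gene start. In Cox6a1 they start 162 and 160 bases before it in the same manner, and the second run of capitals, 16 bases before the start, is the ETS core read on the other strand. A match is a description of letters and shows no binding, and the absence of a word in these windows says nothing about the factor.

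With EPO, most nuclear respiratory chain genes were at a lower fitted level, but few passed the test one by one. Of the 92 tested, 83 (90.2%) had a fitted log2 fold change below 0, against 49.1% of all 16522 genes tested, and their median was -0.41 against 0.01 for all genes. With the quasi-likelihood test of edgeR and a threshold of 0.05 on the adjusted p, 9 members (9.78%) were lower and 2 (2.17%) higher, while 10.1% of all genes were lower, 12.9% higher and 23% changed in either direction. The share of members called lower was thus near that of all genes. The lower members were Ndufb3, Ndufb9, Ndufv2 and Ndufa9 of complex I, the complex I assembly factors Ndufaf4 and Ndufaf7, Sdhc of complex II, Uqcrb of complex III and Cox7a2 of complex IV. The higher members were Ndufa4l2 and Cox6a2, both listed with complex IV. A further 16 members had an adjusted p between 0.05 and 0.1, and at an unadjusted p under 0.05 there were 35 lower and 2 higher. CPM values of the 3 EPO libraries lay wholly below those of the 3 Vehicle libraries in 20 members (all genes 21%) and wholly above in 2 (all genes 22.9%), against 43.8% of all genes in either direction.

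The summed level of the set was 15045, 16375 and 10534 CPM in Vehicle 1, 2 and 3 and 12307, 10118 and 8513 CPM in EPO 1, 2 and 3. Group means (SD, n = 3) were 13985 ± 3062 CPM in Vehicle and 10313 ± 1905 CPM in EPO. The groups overlap, because Vehicle 3 lies below EPO 1. Vehicle 3 was the lowest Vehicle library in 83 of the 92 members and EPO 3 the lowest of all 6 libraries in 75, whereas Vehicle 2 was the highest of all in 62 and EPO 1 in 20. Both Vehicle 1 and Vehicle 2 stood above EPO 2 and EPO 3 in 86 members, and above all EPO libraries in 65. These 2 counts leave out Vehicle 3, and the first also EPO 1. None of these library counts was taken over all tested genes, so they cannot be called particular to this set. Taken per library, the members' median log2 CPM relative to the Vehicle mean was 0.12, 0.21 and -0.31 in Vehicle 1, 2 and 3 and -0.14, -0.42 and -0.65 in EPO 1, 2 and 3.

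**Figure D1:**
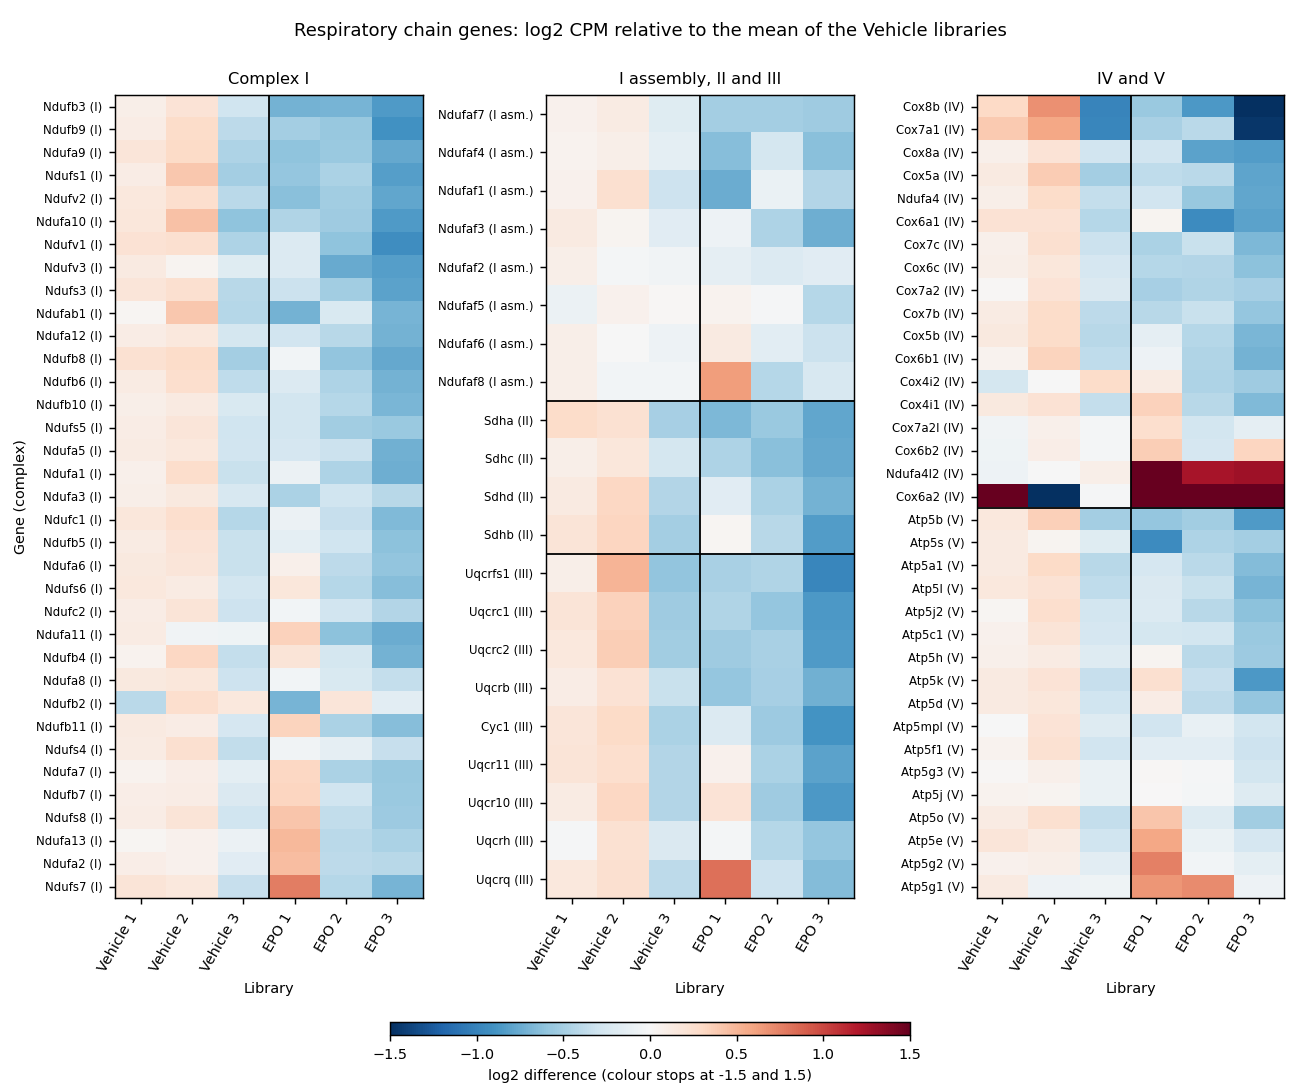
Each row is one of the tested genes (1 of the 92 is not drawn), grouped by complex (I asm., complex I assembly factor), and each column one library; colour gives log2 CPM minus the mean of the 3 Vehicle libraries, with the scale stopping at -1.5 and 1.5. EPO 3 is the lowest library in 75 genes, Vehicle 3 is the lowest Vehicle library in 83, and a minority of rows is red in EPO 1. These counts were not taken over all tested genes.

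Which libraries were included decided how many members passed. The count of lower members was 0 without Vehicle 1, 1 without Vehicle 2, 2 without EPO 2 and 1 without EPO 3, but 23 without Vehicle 3 and 23 without EPO 1. The median log2 fold change of the members ran from -0.57 to -0.28 over these fits. A fit added once the data had been seen omitted Vehicle 1 and Vehicle 2, the libraries with the highest brown and white adipocyte marker sums. It sets Vehicle 3 alone, already the lowest Vehicle library in 83 members, against the 3 EPO libraries, and the EPO group alone supplies the spread. With that choice a smaller difference is built in, and the fit gives a description of Vehicle 3 rather than a check of the result. There no member passed in either direction, the median was -0.06 and 61 of 92 members were below 0. At that size no gene of the whole table passed in edgeR either (at an unadjusted p under 0.05, 1406 genes were higher and 1433 lower, with 2 members higher and 0 lower).

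Brown and white adipocyte markers each moved in nearly the same library order as the respiratory chain genes. Of 10 brown adipocyte markers 4 were lower and 0 higher. Their summed level was 1470, 1917 and 649.5 CPM in Vehicle 1, 2 and 3 and 825, 708 and 399 CPM in EPO 1, 2 and 3. Ucp1, the uncoupling protein that defines brown fat, stood at 813, 1049 and 297 CPM in Vehicle and 527, 385 and 202 CPM in EPO. Of 12 white adipocyte markers 7 were lower and 0 higher. They summed to 6556, 10279 and 4313 CPM in Vehicle 1, 2 and 3 and 3680, 3082 and 2677 CPM in EPO 1, 2 and 3. Smooth muscle markers (11 of 12 lower, 0 higher) summed to 22802 to 32379 CPM in Vehicle and 8107 to 10902 CPM in EPO. All markers of these 3 lists had counts. With single libraries left out, the count of lower markers ran from 1 (without Vehicle 1, Vehicle 2 or EPO 2) to 6 (without Vehicle 3) for brown adipocytes and from 3 (without EPO 2) to 9 (without Vehicle 3 or EPO 1) for white adipocytes, with 4 without Vehicle 1 or Vehicle 2. For smooth muscle it ran from 5 (without Vehicle 1) to 11. Their part in the respiratory chain values was not tested. In RNA from a whole tissue, fewer cells of a type and less RNA per cell cannot be told apart.

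Complex I, the NADH dehydrogenase, is the largest of the complexes. Of its 36 genes 4 were lower (11.1%, against 10.1% of all genes tested) and 0 were higher. A fitted value below 0 was found in 35, with a median log2 fold change of -0.39 and a range from -0.77 to 0.01. The all-gene shares of 10.1% lower and 12.9% higher are those to set beside the counts of every complex and list. The 7 core subunits, which carry the flavin and iron-sulphur centres, had a median of -0.57 with 1 lower, and the 29 accessory subunits a median of -0.38 with 3 lower. Summed over the complex, Vehicle held 3459 ± 674 CPM and EPO 2618 ± 549 CPM.

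Ndufb3, an accessory subunit of the membrane arm (ENSMUSG00000026032, GRCm38 chromosome 1, 58586384 to 58595964), is the gene whose promoter is shown above without the words searched. It stood at 107, 116 and 81.6 CPM in Vehicle 1, 2 and 3 and at 61.7, 62.0 and 55.6 CPM in EPO 1, 2 and 3. The EPO libraries were close together and all lay below the lowest Vehicle library. The level fell from 102 ± 18.1 to 59.8 ± 3.59 CPM (n = 3, SD; edgeR adjusted p = 0.0132; log2 fold change -0.77, SE 0.15). Without Vehicle 1 the adjusted p was 0.052.

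Ndufb9, another membrane arm subunit (ENSMUSG00000022354, chromosome 15, 58933756 to 58939488), had 166, 185 and 117 CPM in Vehicle and 108, 103 and 81.4 CPM in EPO. EPO 1 was not far below Vehicle 3. The change was -0.68 on the log2 scale (SE 0.20, edgeR adjusted p = 0.0461). It missed the threshold without Vehicle 1, Vehicle 2, EPO 2 or EPO 3 (adjusted p from 0.0896 to 0.13).

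Ndufv2, the core subunit with an iron-sulphur centre in the NADH-oxidizing tip (ENSMUSG00000024099, chromosome 17, 66078638 to 66101559), stood at 163, 174 and 110 CPM in Vehicle and 95.0, 102 and 85.0 CPM in EPO. The groups did not overlap. Its log2 fold change was -0.67 (SE 0.19, edgeR adjusted p = 0.0407). Leaving out any single library other than Vehicle 3 put the adjusted p between 0.0599 and 0.123. Ndufa9, which lies where the membrane and matrix arms meet (ENSMUSG00000000399, chromosome 6, 126821721 to 126849136), showed 107, 115 and 68.0 CPM in Vehicle against 61.9, 63.9 and 55.2 CPM in EPO. Its log2 fold change was -0.68 (SE 0.20, edgeR adjusted p = 0.047), and it too was lost without any single library other than Vehicle 3 (adjusted p from 0.069 to 0.138).

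A minority of complex I genes had a high value in EPO 1. Ndufs7, a core subunit with the iron-sulphur centre nearest to ubiquinone, stood at 103, 100.3 and 71.0 CPM in Vehicle and 153, 66.8 and 55.6 CPM in EPO. EPO 1 was the highest library, EPO 2 and EPO 3 the lowest, and the fitted log2 fold change was 0.01 (SE 0.37, edgeR adjusted p = 0.991). Ndufa11, an accessory subunit of the membrane arm, had 74.5, 66.0 and 65.8 CPM in Vehicle and 87.0, 44.9 and 41.0 CPM in EPO (edgeR adjusted p = 0.548; log2 fold change -0.25, SE 0.28); without EPO 1 it passed, with an adjusted p of 0.00692. Ndufb2 had the lowest level of the complex, 3.00, 4.74 and 4.45 CPM in Vehicle and 2.43, 4.52 and 3.58 CPM in EPO.

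Assembly factors of complex I guide the modules together and leave the finished enzyme. Of the 8 carrying Ndufaf names, 2 were lower and 0 higher (median log2 fold change -0.29). Ndufaf7, a mitochondrial methyltransferase (ENSMUSG00000024082, chromosome 17, 78937136 to 78948052), stood at 29.0, 30.1 and 24.3 CPM in Vehicle and 19.4, 19.4 and 19.0 CPM in EPO. The EPO libraries were almost equal and lay below all of Vehicle. Its log2 fold change was -0.53 (SE 0.13, edgeR adjusted p = 0.0237), with adjusted p from 0.0641 to 0.0821 without Vehicle 1, Vehicle 2, EPO 2 or EPO 3.

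Ndufaf4 (ENSMUSG00000028261, chromosome 4, 24898083 to 24905001), whose promoter is shown with the NRF1 letters, had 30.9, 31.7 and 26.7 CPM in Vehicle and 19.1, 24.7 and 19.2 CPM in EPO. All EPO values were below all Vehicle values, EPO 2 by the least. Its log2 fold change was -0.50 (SE 0.15, edgeR adjusted p = 0.0475). Leaving out any single library other than EPO 2 put the adjusted p between 0.0671 and 0.136. Ndufaf3, its partner in early assembly, had 20.7, 19.4 and 16.8 CPM in Vehicle and 17.9, 13.7 and 11.3 CPM in EPO. The groups overlapped through EPO 1, and its log2 fold change of -0.41 did not pass (SE 0.19, edgeR adjusted p = 0.169), though without EPO 1 it did (0.0311).

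Complex II, succinate dehydrogenase, is shared with the citric acid cycle and is encoded wholly in the nucleus. All 4 of its genes had fitted values below 0, with a median log2 fold change of -0.55, and 1 was lower. Summed, the 4 stood at 1244, 1276 and 784 CPM in Vehicle and 797, 743 and 627 CPM in EPO, with EPO 1 just above Vehicle 3. Sdhc, a membrane anchor that holds the haem (ENSMUSG00000058076, chromosome 1, 171127165 to 171150603), had 180.4, 191 and 141 CPM in Vehicle and 122, 109.5 and 99.3 CPM in EPO. It fell from 171 ± 26.6 to 110.4 ± 11.6 CPM, without overlap (SD, n = 3; edgeR adjusted p = 0.0275; log2 fold change -0.63, SE 0.16). Without Vehicle 1, Vehicle 2, EPO 2 or EPO 3 its adjusted p was between 0.0766 and 0.0899.

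Sdha, the flavoprotein that oxidizes succinate (chromosome 13, 74322254 to 74350280), had 705, 686 and 413 CPM in Vehicle and 367, 398 and 341 CPM in EPO. The groups did not overlap, but Vehicle 3 was much nearer to EPO than to Vehicle 1 and 2. Its log2 fold change was -0.71 (SE 0.22, edgeR adjusted p = 0.0577), and without Vehicle 3 the adjusted p was 0.0186. The iron-sulphur subunit Sdhb (195, 214 and 120.1 CPM against 175, 128 and 95.7 CPM) and the second anchor Sdhd (164, 185 and 109.9 CPM against 133, 108 and 91.5 CPM) overlapped between groups and did not pass (edgeR adjusted p = 0.33 and 0.173).

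Complex III, cytochrome c reductase, passes electrons from ubiquinol to cytochrome c. Of 9 genes 1 was lower (11.1%, all genes 10.1%) and 8 had fitted values below 0, with a median log2 fold change of -0.56. Uqcrb, an accessory subunit near the ubiquinone site (ENSMUSG00000021520, chromosome 13, 66900617 to 66905378), stood at 116, 124 and 85.2 CPM in Vehicle and 71.6, 75.8 and 65.1 CPM in EPO. The level fell from 108 ± 20.6 to 70.9 ± 5.39 CPM without overlap (SD, n = 3; edgeR adjusted p = 0.0337; log2 fold change -0.61, SE 0.16). It lost the call without Vehicle 1, Vehicle 2, EPO 2 or EPO 3 (adjusted p from 0.0656 to 0.104), and it overlaps another gene on the opposite strand over 50 bases.

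The core proteins Uqcrc1 and Uqcrc2, which scaffold the matrix side, had similar profiles over the libraries. Uqcrc1 had 346, 385 and 210.0 CPM in Vehicle and 221, 203 and 167 CPM in EPO, and Uqcrc2 had 213, 248 and 133 CPM and 133, 137 and 106 CPM. In each, Vehicle 3 was within the EPO range. Their log2 fold changes were -0.67 and -0.66 (SE 0.24 each, edgeR adjusted p = 0.0829 and 0.082), and without Vehicle 3 the adjusted p was 0.0243 and 0.0234. Uqcrq, a small subunit beside cytochrome b, was the one gene of the complex with a fitted value above 0. It stood at 193, 203 and 131 CPM in Vehicle and 306, 139 and 109.9 CPM in EPO, EPO 1 being the highest of all libraries (edgeR adjusted p = 0.91; log2 fold change 0.07, SE 0.38).

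Complex IV, cytochrome c oxidase, was the only complex with members called in both directions, given that Ndufa4l2 was placed here and not by its complex I name. Of its 18 tested genes 2 were higher and 1 lower, and 15 had fitted values below 0. The 11 ubiquitous subunits all had fitted values below 0, with a median log2 fold change of -0.50 and 1 lower, while the 6 tested tissue-restricted isoforms ran from -1.11 to 4.01. Cox7a2, a small ubiquitous subunit (ENSMUSG00000032330, chromosome 9, 79755361 to 79759878), had 119, 135 and 101 CPM in Vehicle and 82.9, 85.6 and 82.8 CPM in EPO. The EPO values were within a few CPM of each other and below all of Vehicle. It fell from 118 ± 17.3 to 83.8 ± 1.55 CPM (n = 3, SD; edgeR adjusted p = 0.037; log2 fold change -0.50, SE 0.14). Without Vehicle 1, Vehicle 2, EPO 2 or EPO 3 the adjusted p was between 0.0846 and 0.11.

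Ndufa4l2, the hypoxia-inducible relative of Ndufa4 (ENSMUSG00000040280, chromosome 10, 127514967 to 127517154), was higher in every EPO library. It stood at 10.2, 10.7 and 11.5 CPM in Vehicle and at 57.7, 25.4 and 26.0 CPM in EPO. The Vehicle libraries were nearly equal, and EPO 1 was well above EPO 2 and EPO 3. The level rose 3.38-fold, from 10.8 ± 0.647 to 36.4 ± 18.5 CPM (n = 3, SD; edgeR adjusted p = 0.00998; log2 fold change 1.76, SE 0.33). It passed without each single library (adjusted p from 0.00283 to 0.049), and its log2 fold change was 1.24 without EPO 1 and 1.64 against Vehicle 3 as the only Vehicle library, the latter with an adjusted p of 0.256. Ndufa4 itself, a subunit of complex IV, stood at 224, 255 and 164 CPM in Vehicle and 173, 142 and 122 CPM in EPO (edgeR adjusted p = 0.0897; log2 fold change -0.55, SE 0.20). Shares per length here use the merged length of all annotated exons of a gene, which can exceed that of a transcript. On that basis, Ndufa4l2 made up 5.42%, 5.03% and 8.10% of the 2 genes together in Vehicle 1, 2 and 3. In EPO 1, 2 and 3 it made up 29.6%, 18.4% and 21.1%. Ndufa4l2 overlaps Shmt2 on the opposite strand over 32 bases.

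Cox6a2, the heart and skeletal muscle form of subunit VIa (ENSMUSG00000030785, chromosome 7, 128205435 to 128206387), had 3.43, 0.311 and 1.07 CPM in Vehicle and 26.4, 45.9 and 4.09 CPM in EPO. These correspond to 79, 8 and 31 counts and to 948, 1353 and 136 counts. EPO 3 was only a little above Vehicle 1, and the other EPO libraries far above. The level rose 16.1-fold by the fit, from 1.60 ± 1.63 to 25.5 ± 20.9 CPM (n = 3, SD; edgeR adjusted p = 0.0286; log2 fold change 4.01, SE 1.02). The adjusted p was between 0.0509 and 0.0861 without Vehicle 2, Vehicle 3, EPO 1 or EPO 2, and was 0.103 in limma-voom. With EPO 3, its lowest EPO library, as the 1 EPO sample left, the log2 fold change was 1.36 (adjusted p = 0.452, with the spread taken from Vehicle), a smaller value that follows from that choice. Cox6a2 overlaps Itgad on the opposite strand over 70 bases.

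Skeletal muscle markers followed the same order over the EPO libraries as Cox6a2. Of 15 markers 14 were tested, 13 of them higher and 0 lower, and the list summed to 63.7, 46.8 and 38.8 CPM in Vehicle 1, 2 and 3 and 1432, 3636 and 445 CPM in EPO 1, 2 and 3. Tnnc2, the untested marker, had 4 counts in all of Vehicle and 2 in all of EPO. Of 10 cardiac markers 9 were tested, with 1 higher and 2 lower, and they summed to 58.6 to 203 CPM in Vehicle and 45.8 to 126 CPM in EPO. The untested cardiac marker Nppa had 9 counts in Vehicle and 3 in EPO. The part of either tissue in the Cox6a2 values was not tested.

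The ubiquitous partner Cox6a1, whose promoter holds the NRF1 and ETS letters, had the highest level per length of all members in Vehicle, 775 CPM per kb of exon. It stood at 618, 618 and 397 CPM in Vehicle and 549.6, 278 and 307 CPM in EPO (edgeR adjusted p = 0.248; log2 fold change -0.53, SE 0.30). EPO 1 lay within the Vehicle range and the other EPO libraries below it, and without EPO 1 the adjusted p was 0.03. Cox6a2 was 0.571%, 0.052% and 0.277% of the pair per length in Vehicle 1, 2 and 3 and 4.73%, 14.6% and 1.36% in EPO 1, 2 and 3.

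Cox7a1 and Cox8b, the forms known from striated muscle and brown fat, had the lowest fitted values of complex IV but a wide spread. Cox8b (ENSMUSG00000025488, chromosome 7, 140898945 to 140900446) had 287, 376 and 118 CPM in Vehicle and 158, 129 and 74.8 CPM in EPO. Vehicle 3 was below EPO 1 and EPO 2, and the log2 fold change of -1.11 did not pass (SE 0.43, edgeR adjusted p = 0.106). Without Vehicle 3 the adjusted p was 0.0286. Against Vehicle 3 alone, the 1 library left without Vehicle 1 and Vehicle 2 and the lowest of the 3 for this gene, the log2 fold change was 0.00. Cox7a1 (chromosome 7, 30184144 to 30186078) had 111, 127 and 43.2 CPM in Vehicle and 60.3, 64.3 and 30.8 CPM in EPO, again with Vehicle 3 below EPO 1 and EPO 2 (edgeR adjusted p = 0.185; log2 fold change -0.86, SE 0.42; 0.0444 without Vehicle 3).

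As a share of each pair per length, Cox8b was 60.1%, 64.3% and 44.2% beside Cox8a in Vehicle and 51.6%, 55.5% and 42.5% in EPO, and Cox7a1 was 62.3%, 62.4% and 43.1% beside Cox7a2 in Vehicle and 56.2%, 57.0% and 39.6% in EPO. Both shares were lowest in Vehicle 3 and EPO 3, the libraries with the lowest brown and white adipocyte marker sums of their groups. Cox8a, the ubiquitous form, had 328, 359.8 and 256 CPM in Vehicle and 256, 178 and 174 CPM in EPO (edgeR adjusted p = 0.0627; log2 fold change -0.63, SE 0.21; 0.0156 without EPO 1). The part of brown fat in these shares was not tested.

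**Figure D2:**
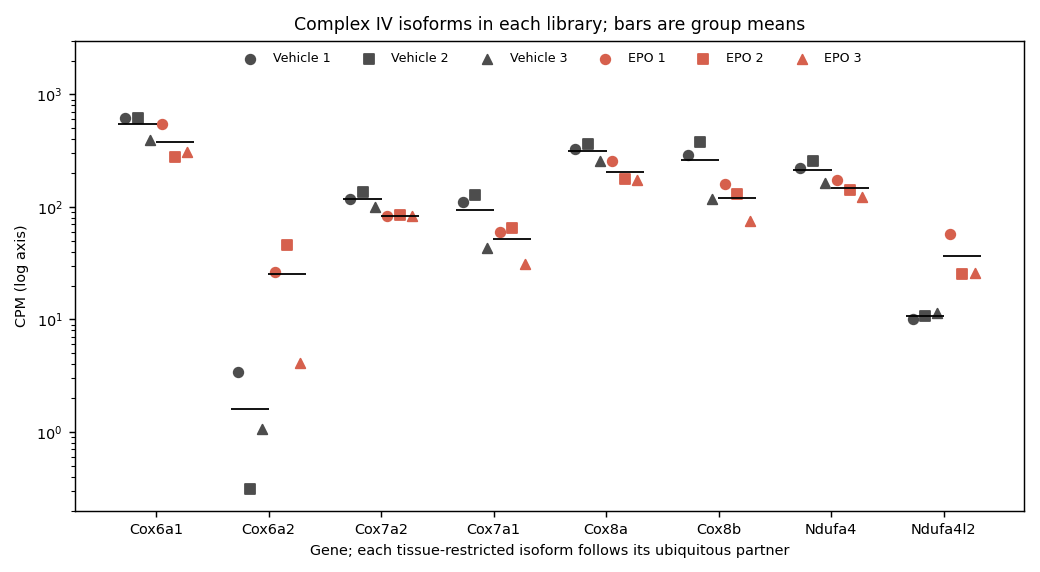
Points are CPM in each library on a log axis, Vehicle in grey and EPO in red, and bars are group means; each tissue-restricted isoform stands to the right of its ubiquitous partner. Ndufa4l2 and Cox6a2 lie higher in all EPO libraries, Cox6a2 over a wide range (4.09 to 45.9 CPM), while Cox7a1 and Cox8b are low in Vehicle 3 and lowest in EPO 3.

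The other complex IV isoforms did not pass. Cox4i1, the ubiquitous form of subunit IV, had 312, 328 and 222 CPM in Vehicle and 359, 212 and 179 CPM in EPO, and Cox4i2, the form known from lung, stayed low with 2.65, 3.19 and 3.90 CPM and 3.49, 2.31 and 2.19 CPM (edgeR adjusted p = 0.645 and 0.514). Cox6b1 had 212, 256 and 156 CPM in Vehicle and 194, 149.6 and 125 CPM in EPO, and the testis form Cox6b2 had 4.95, 5.56 and 5.11 CPM and 6.75, 4.35 and 6.52 CPM (edgeR adjusted p = 0.23 and 0.619). In all 4 the groups overlapped. Cox7b, a ubiquitous subunit, had 182, 201 and 127 CPM in Vehicle and 125, 132 and 111 CPM in EPO (edgeR adjusted p = 0.112; 0.0375 without Vehicle 3), and Cox6c, another, missed the threshold narrowly (edgeR adjusted p = 0.0511; log2 fold change -0.50, SE 0.15). Cox7a2l, which helps to join complexes III and IV into supercomplexes, had 125, 137 and 127 CPM in Vehicle and 154, 107 and 118 CPM in EPO (edgeR adjusted p = 0.892; log2 fold change -0.04, SE 0.16). Cox7b2 and Cox8c, both known from testis, had 0 counts throughout.

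Complex V, the ATP synthase, had the highest summed level of the complexes and no member that passed. Its 17 genes summed to 4811, 5300 and 3427 CPM in Vehicle and 3881, 3483 and 2895 CPM in EPO, and 14 had fitted values below 0, with a median log2 fold change of -0.27. At an unadjusted p under 0.05, 4 were lower and 0 higher; DESeq2 called 2 lower and limma-voom 0. By part of the enzyme, the median was -0.37 over 5 genes of the F1 head and central stalk, -0.15 over 4 of the peripheral stalk, 0.25 over 3 of the c ring and -0.42 over the other 5.

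Atp5b, the catalytic beta subunit (chromosome 10, 128083273 to 128090391), was the member with the most counts. It had 1706, 1958 and 1076 CPM in Vehicle and 1029, 1066 and 849 CPM in EPO. The groups did not overlap, though Vehicle 3 was only just above EPO 2. The log2 fold change was -0.69 (SE 0.25, edgeR adjusted p = 0.084), and without Vehicle 3 the adjusted p was 0.035. Atp5s, a factor associated with the enzyme, had 9.86, 9.18 and 7.90 CPM in Vehicle and 4.6, 6.48 and 6.25 CPM in EPO, again without overlap (edgeR adjusted p = 0.0608; log2 fold change -0.64, SE 0.20). Atp5j2, the membrane subunit f, had 179, 209.7 and 145 CPM in Vehicle and 152, 132 and 115 CPM in EPO (edgeR adjusted p = 0.129; log2 fold change -0.42, SE 0.18).

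The c ring, the rotor that protons turn, is built from 1 mature protein encoded by Atp5g1, Atp5g2 and Atp5g3, which differ in their import sequences. Because of that likeness reads may be split between the genes, and their single values are uncertain. Atp5g1 had 59.5, 51.7 and 52.1 CPM in Vehicle and 86.1, 88.7 and 51.3 CPM in EPO, so that EPO 1 and EPO 2 were above and EPO 3 below all of Vehicle (edgeR adjusted p = 0.151; log2 fold change 0.47, SE 0.21; 0.0182 without EPO 3). Atp5g2 had 69.3, 70.7 and 59.6 CPM in Vehicle and 112, 64.5 and 60 CPM in EPO, with a high EPO 1 only. Atp5g3, the most abundant of the 3 per length, had 151, 157 and 139 CPM in Vehicle and 151, 147 and 123 CPM in EPO. Neither of the latter passed (edgeR adjusted p = 0.498 and 0.666). Atp5e, the small epsilon subunit of the central stalk, had 182, 174 and 130.4 CPM in Vehicle and 239, 149.9 and 135 CPM in EPO, with EPO 1 highest once more (edgeR adjusted p = 0.783).

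**Figure D3:**
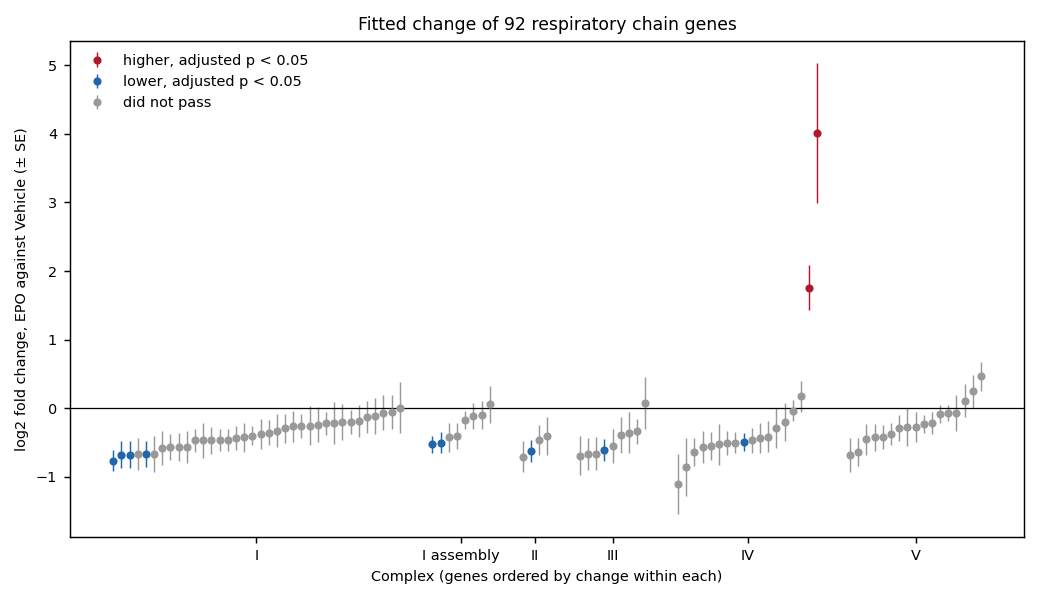
Each point is the edgeR log2 fold change of a tested gene, EPO against Vehicle, with its standard error, ordered within each complex; red and blue mark genes higher and lower at an adjusted p under 0.05. Of 92 genes 83 lie below 0, while Ndufa4l2 (1.76) and Cox6a2 (4.01) stand far above the rest of complex IV.

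EPO 1 stood apart from EPO 2 and EPO 3 in part of the set. It was the highest EPO library in 70 of 92 members and above all Vehicle libraries in 22, against 3 members each for EPO 2 and EPO 3. Those 22 include Ndufs7, Ndufs8, Ndufa11, Ndufa13, Uqcrq, Cox4i1, Atp5e and both genes called higher, Ndufa4l2 and Cox6a2. Their median transcript GC content was 54.7% against 49.95% in the other members, and their median length 809.5 against 986 bases. Over the 92 members, which share the libraries, GC content and the log2 difference of EPO 1 from the mean of EPO 2 and EPO 3 had a Spearman rho of 0.663, given as a description. Neither the counts of members nor the GC and length values were taken over all tested genes. They therefore cannot be called particular to this set. EPO 1 also had the deepest library and the highest macrophage marker sum, 6104 CPM against 2215 to 2224 CPM in the other EPO libraries and 1121 to 1923 CPM in Vehicle (of 12 markers 2 were higher and 0 lower in edgeR, 8 higher in DESeq2 and 11 higher at an unadjusted p under 0.05). The median log2 fold change of the macrophage markers was 1.22, and 0.48 without EPO 1. The part of depth, GC content or macrophages in these values was not tested.

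The genes of the same chain that mitochondrial DNA encodes had lower fitted values as well. Of 13 genes 12 were tested, and 8 were lower (66.7%, all genes 10.1%) and 0 higher. All 12 had fitted values below 0 with a median log2 fold change of -0.95. Their sum was 61662, 63662 and 40933 CPM in Vehicle 1, 2 and 3 and 35362, 37310 and 26872 CPM in EPO 1, 2 and 3, so the groups did not overlap. mt-Nd3, a complex I subunit, fell from 32.7 ± 10.7 to 13.3 ± 3.71 CPM (n = 3, SD; edgeR adjusted p = 0.0216; log2 fold change -1.30, SE 0.30), and mt-Co3, a complex IV subunit, from 191 ± 66.9 to 72.5 ± 23.2 CPM (-1.40, SE 0.33, edgeR adjusted p = 0.0234). Both lost the call without Vehicle 1, Vehicle 2 or EPO 2 (adjusted p from 0.0534 to 0.0805). The untested mt-Atp8 had 3 counts in Vehicle and 21 in EPO. In edgeR, 0 genes of this list passed without Vehicle 1 or without Vehicle 2, 2 without EPO 1 or EPO 2 and 4 without EPO 3. The difference between the nuclear and mitochondrial lists was not tested.

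Most enzymes that feed the chain also had fitted values below 0. All 13 genes of the citric acid cycle did, with a median log2 fold change of -0.75, and 3 were lower (23.1%, all genes 10.1%). That count was 1 without Vehicle 1, Vehicle 2, EPO 2 or EPO 3, 2 without EPO 1 and 11 without Vehicle 3. Suclg2, a subunit of succinyl-CoA ligase, fell from 96.5 ± 15.4 to 50.9 ± 6.95 CPM (n = 3, SD; edgeR adjusted p = 0.00858; log2 fold change -0.92, SE 0.16) and kept its call without each single library. Citrate synthase, Cs, fell from 471 ± 130 to 279.7 ± 29.7 CPM (-0.75, SE 0.23, edgeR adjusted p = 0.0493), a call that held only without Vehicle 3 among the fits that left out 1 library. Of 15 fatty acid oxidation genes 7 (46.7%) were lower and 0 higher, with a median of -0.89. Fitted values were below 0 in 14, the exception being Cpt1a (log2 fold change 0.28, edgeR adjusted p = 0.209). Hadhb, the thiolase of the trifunctional protein, fell from 564 ± 257 to 237 ± 30.3 CPM (-1.25, SE 0.34, edgeR adjusted p = 0.0371), a call lost without any single library other than Vehicle 3 (adjusted p from 0.0683 to 0.105). That list had 0 lower genes without Vehicle 1, Vehicle 2, EPO 2 or EPO 3, 2 without EPO 1 and 13 without Vehicle 3.

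Among 7 tested carriers of electrons, nucleotides and phosphate, 1 was lower. This was Etfb, a subunit of the flavoprotein that takes electrons from fatty acid oxidation (edgeR adjusted p = 0.0497, log2 fold change -1.04, SE 0.31). Its level was low, 3.74 ± 1.11 CPM in Vehicle and 1.82 ± 0.409 CPM in EPO, from 290 and 177 counts. The call was lost without any single library (edgeR adjusted p from 0.0651 to 0.169). Etfa of the same list stood at 331 ± 113 and 185 ± 14.2 CPM and did not pass (edgeR adjusted p = 0.0536, log2 fold change -0.84). Of 32 tested assembly factors outside the name rule 1 was lower, Surf1, which helps to build complex IV (50.1 ± 2.08 and 35.4 ± 5.60 CPM; edgeR adjusted p = 0.0387; log2 fold change -0.50, SE 0.14; 0.0771 to 0.108 without any single library other than EPO 1). Sco2 and Pet117 of that list had 0 counts.

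Other mitochondrial genes, for protein synthesis and import, had medians closer to 0. Of 77 tested mitochondrial ribosomal protein genes 4 were lower and 0 higher (median log2 fold change -0.14); 0 were lower without Vehicle 1, Vehicle 2, EPO 2 or EPO 3, 1 without Vehicle 3 and 7 without EPO 1. None of 15 import and membrane proteins passed in edgeR, limma-voom or DESeq2, 1 was lower at an unadjusted p under 0.05, and the median was -0.14. Hspa9, the matrix chaperone that pulls proteins in, had the smallest p of them (354 ± 85.3 and 247 ± 31.2 CPM; edgeR adjusted p = 0.108; log2 fold change -0.52, SE 0.20).

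Of 12 regulators of respiratory chain genes 1 was higher. Pprc1, a coactivator related to PGC-1alpha, stood at 29.8, 30.3 and 33.2 CPM in Vehicle and 37.1, 52.0 and 44.4 CPM in EPO (edgeR adjusted p = 0.0426; log2 fold change 0.52, SE 0.15), a call lost without any single library other than EPO 1 (adjusted p from 0.0819 to 0.166). Ppargc1a, PGC-1alpha itself, the main coactivator of mitochondrial genes, stood at 6.82, 21.5 and 8.59 CPM in Vehicle and 3.46, 6.21 and 4.42 CPM in EPO. The groups did not overlap, and Vehicle 2 was far above the other libraries. Its log2 fold change of -1.39 did not pass (SE 0.45, edgeR adjusted p = 0.0639), and it is also 1 of the 10 brown adipocyte markers.

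**Figure D4:**
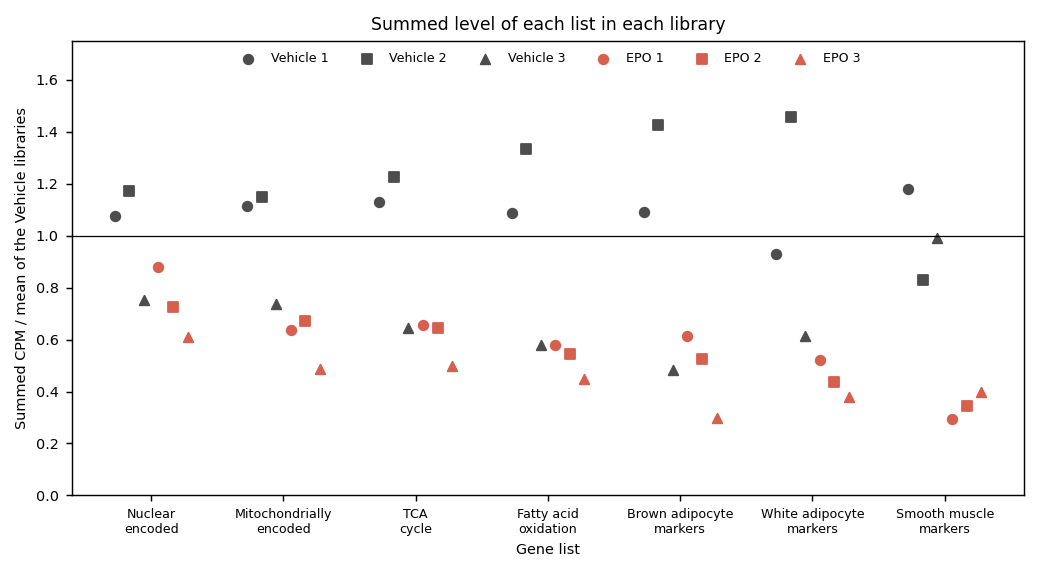
Points give the summed CPM of each gene list in each library, divided by the mean of the 3 Vehicle libraries (line at 1), Vehicle in grey and EPO in red. In each list other than smooth muscle markers, Vehicle 2 is the highest library, Vehicle 3 the lowest Vehicle library and EPO 3 the lowest of all. Smooth muscle markers are lowest in EPO 1 (8107 CPM). The groups lie fully apart in smooth muscle markers, white adipocyte markers and mitochondrially encoded genes.

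Markers of the remaining cell types moved in both directions. Of 10 fibroblast markers 5 were higher and 1 lower, of 12 endothelial markers 3 were higher and 1 lower, and of 7 tested erythroid markers none passed in edgeR (0 at an unadjusted p under 0.05). The fibroblast sum was 13070.4 to 16440 CPM in Vehicle and 58187 to 76400 CPM in EPO. The median log2 fold change of that list was 0.58, with a range from -1.45 to 2.90 and 3 of 10 fitted values below 0. Most markers were thus fitted higher (7 of 10 at an unadjusted p under 0.05), but the size of the rise of the sum does not describe the median marker. The part of these cells in the respiratory chain values was not tested.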

How the data were processed

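The deposited table gives whole-number, unnormalized counts for each Ensembl gene in 6 columns, all used (columns not used, 0). Columns abbreviated Con were read as Vehicle. Per the labels' protocols, the library kit was NEBNext Ultra RNA, with no mention of strand marking. Per the submitters' processing notes, CASAVA 1.8, TopHat2 2.0.6 and mm10 were used. Which counter, strand setting and annotation were used is not given in the sources used here. Counts of 29 members that overlap another gene on the opposite strand are therefore uncertain.

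Symbols, coordinates and exon lengths came from GENCODE M21 (GRCm38) for 47224 gene IDs; 419 IDs (0.0272% of counts) had none. Left out were 11 processed pseudogenes that match the names, with 210 counts against 2095199 for the members. In R 4.3.3, edgeR 4.0.16 was run with filterByExpr, TMM scaling and a two-sided quasi-likelihood test, with Benjamini-Hochberg adjustment over all 16522 genes tested; 31121 were filtered out. For 1 tested member no values of its own are reported here. The common biological coefficient of variation was 0.244. A standard error is the size of the log2 fold change without shrinkage, divided by the square root of F. Printed log2 fold changes are those of edgeR, shrunk by a prior count. CPM uses the TMM-scaled count over tested genes, and log2 CPM a prior count of 2. Depth was 23278649 to 38502430 counts. Limits at 0 counts use these totals without TMM scaling and cover counting error only. The procedure was checked on simulated data.

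Members were taken by name without use of a measured value. The name rule and the gene lists were nevertheless set with earlier results of these data known, so they are not independent evidence. Members named with values in each library are the 3 of smallest p in each complex and among the assembly factors, and the isoform paralogues. From the lists of related genes, some of the 3 genes of smallest p are given, most as group means and SD. Ndufa9, Ndufa11, Ndufb2, Ndufs7, Sdhb, Uqcrq, Cox6c, Atp5e, Cpt1a and Ucp1, and untested genes given by counts, were added after their values were seen. Alternatives were other scalings, filters and tests (DESeq2 1.42.0, limma-voom 3.58.1), a replicate block, removal of mitochondrial and haemoglobin genes, an adjusted p under 0.1, and libraries left out; a fit without Vehicle 1 and Vehicle 2 was chosen after seeing the data.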

Additional observations from a re-analysis of the deposited data

How the results depend on the processing

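Of the settings that kept all libraries, the count of lower members was 9 in the reported fit, 7 in limma-voom, 15 with library size alone, 22 in DESeq2, 21 in limma-voom with sample weights and 25 at an adjusted p under 0.1; the count of higher members, 2 in the reported fit, was 1 in limma-voom, 1 with sample weights and 1 with the replicate block. Leaving out one library each gave 0 to 23 lower and 1 to 3 higher members, and 699 to 2016 lower and 936 to 2265 higher genes overall. Fits without 2 libraries leave 1 sample in an arm, assumed to vary like the other group. Without EPO 1 and EPO 2 there were 2 lower members (Ndufa11 and Ndufv3), 1 higher (Ndufa4l2), and 463 lower and 1085 higher genes overall; without Vehicle 1 and Vehicle 2 there were 0 of each among members and among all genes. Whether the replicate numbers pair the samples was not settled. After each group's own mean was removed, same-numbered libraries had correlations of -0.00880, -0.00980 and 0.127. Differently numbered ones ran from -0.101 (Vehicle 3 with EPO 2) to 0.120 (Vehicle 1 with EPO 2). The highest value was thus a same-numbered pair, Vehicle 3 with EPO 3, and with 3 libraries a group such values cannot decide the question. With the replicate block 12 members were lower, and 1630 genes were higher and 1254 lower overall; the mitochondrially encoded list then had 1 lower gene against 8, and the mitochondrial ribosomal list 1 against 4.

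Several fitted signs turned. Ndufs7 was at -0.038 with library size alone, -0.13 in limma-voom, -0.47 with sample weights, -0.12 with the block and -0.71 without EPO 1 and EPO 2, with a range of -0.59 (without EPO 1) to 0.27 (without EPO 3) over single libraries left out. Uqcrq was at -0.059 in limma-voom, -0.39 with sample weights, -0.048 with the block and -0.67 without EPO 1 and EPO 2, and from -0.51 (without EPO 1) to 0.34 (without EPO 3) over single libraries; both turned negative without Vehicle 3 (-0.15 and -0.10). Atp5e was at -0.11 with sample weights and -0.26 without EPO 1 and EPO 2, and from -0.19 (without EPO 1) to 0.26 (without EPO 3) over single libraries. Atp5g2 was at -0.029 with sample weights and -0.15 without EPO 1 and EPO 2, and from -0.11 (without EPO 1) to 0.41 (without EPO 3). Atp5g1 was at -0.082 without EPO 1 and EPO 2. Cox7a2l ran from -0.21 (without EPO 1) to 0.073 (without EPO 2), and Atp5g3 from -0.15 (without EPO 1) to 0.0018 (without EPO 3). Against Vehicle 3 alone (without Vehicle 1 and Vehicle 2), genes with reported values from -1.11 to -0.20 also turned: Cox7a1 was at 0.23, Cox8b at 0.0033, Sdhb at 0.12, Ucp1 at 0.29 and Cox4i1 at 0.14. In that fit the turn follows from keeping the lowest Vehicle library; the other causes were not tested. The median of all genes moved by less than 0.1 under every scaling, and Ndufa4l2 was called in every fit other than that without Vehicle 1 and Vehicle 2. With 3 libraries a group, differences within the spread between libraries could not be resolved.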
